A study of Mus musculus with 4 samples.

Results

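The genes described here are those of the unfolded protein response (UPR), by which a cell adjusts to unfolded protein in the endoplasmic reticulum (ER), and of autophagy, by which it encloses and digests its own contents. They were chosen by name as 38 ER stress sensors, transcription factors, chaperones and autophagy genes. Of these, 35 had a probe set with a symbol, out of 19505 genes with a symbol on the array, and Pdia4, Manf and Optn were not analysed here. Their levels came from 4 libraries of macrophages sorted from mouse hearts, titled Ccrl2, CD74, CD163 and Trem2 after the marker of each population, with 1 Clariom S array per library. All 4 populations were sorted from 6 mixed hearts of C57BL/6N wild type mice, 15 to 16 weeks old, that had undergone transverse aortic constriction (TAC), surgery that narrows the aorta and so raises the pressure load on the heart. No unoperated heart was among the libraries. The labels place the sampling at 8 weeks after TAC in one field and at 1 week in another, give CD9 as the marker of the library titled CD74, and list a Lyve1 population in place of CD163, so libraries are named by their titles.

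Levels are the deposited log2 values, and a difference of 1 on this scale is 2-fold. A level counted as measured when it lay above the background ceiling of its library, which is the 95th percentile of 1498 chemosensory receptor and keratin-associated protein genes there. In Ccrl2 7454 genes exceeded a ceiling of 5.67, in CD74 3621 exceeded 6.53, in CD163 4984 exceeded 6.28 and in Trem2 8144 exceeded 5.51. Fewer genes were therefore measurable, over a higher background, in CD74 and CD163. Since each library was a single array, no difference has a replicate check and no test could be made, which limits the precision of every value below. Of 8 macrophage markers with a probe set, all 8 lay above the ceiling in Ccrl2, CD163 and Trem2 and 6 in CD74, where Fcgr1 and Mertk did not. Csf1r, the receptor of macrophage colony-stimulating factor, had 9.40 in the library titled CD74, against 19.59 in Ccrl2, 18.60 in CD163 and 19.19 in Trem2. Of 10 T and NK cell markers, 8 lay above the ceiling in CD74, 0 in Ccrl2, 1 in CD163 and 6 in Trem2. In bulk samples such as these, fewer cells of a type and less RNA per cell cannot be told apart.

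The UPR starts from 3 sensors in the ER membrane. IRE1, encoded by Ern1, splices the messenger of the transcription factor XBP1. PERK, encoded by Eif2ak3, phosphorylates the translation factor eIF2 and so favours translation of ATF4, and ATF6 is cut in the Golgi into an active transcription factor. Together they raise chaperones, folding enzymes and the machinery of ER-associated degradation (ERAD), which exports misfolded proteins to the proteasome. Autophagy builds a double membrane around cargo with ATG proteins and the ubiquitin-like ATG8 family, and in macrophages it serves the clearance of lipids, organelles and microbes. The array measures messenger levels and reports neither XBP1 splicing, eIF2 phosphorylation nor the rate of autophagy.

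Of the 35 genes, 21 lay above the ceiling in all 4 libraries, 5 in 3, 4 in 2 and 4 in 1. Chac1, which encodes a glutathione-degrading enzyme induced by ATF4, lay below it in every library and was left out of all counts. The remaining 34 were most often lowest in CD74, which held for 22 of them, and most often highest in Trem2 (19) or Ccrl2 (14). Among the 9346 genes measured in at least 1 library, 48.3% were lowest in CD74, 39.5% highest in Trem2 and 32.4% highest in Ccrl2, so the order of the libraries was in part that of the whole array. After quantile normalization, which gives the 4 arrays the same distribution, 17 of the 34 were lowest in CD74 (40.3% of all genes), 11 highest in Ccrl2 (23.9%) and 10 highest in Trem2 (24.4%), so the place of Trem2 ahead of Ccrl2 was not kept. The range from the lowest to the highest library had a median of 2.43 log2 units over the 23 measured UPR genes and of 1.40 over the 11 autophagy genes, beside 1.72 over all genes measured. After quantile normalization these medians were 1.84 over the UPR genes, 1.52 over the autophagy genes and 1.59 over all genes. Levels below a ceiling entered the range of 7 of the 23 UPR genes and of 6 of the 11 autophagy genes.

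**Figure D1:**
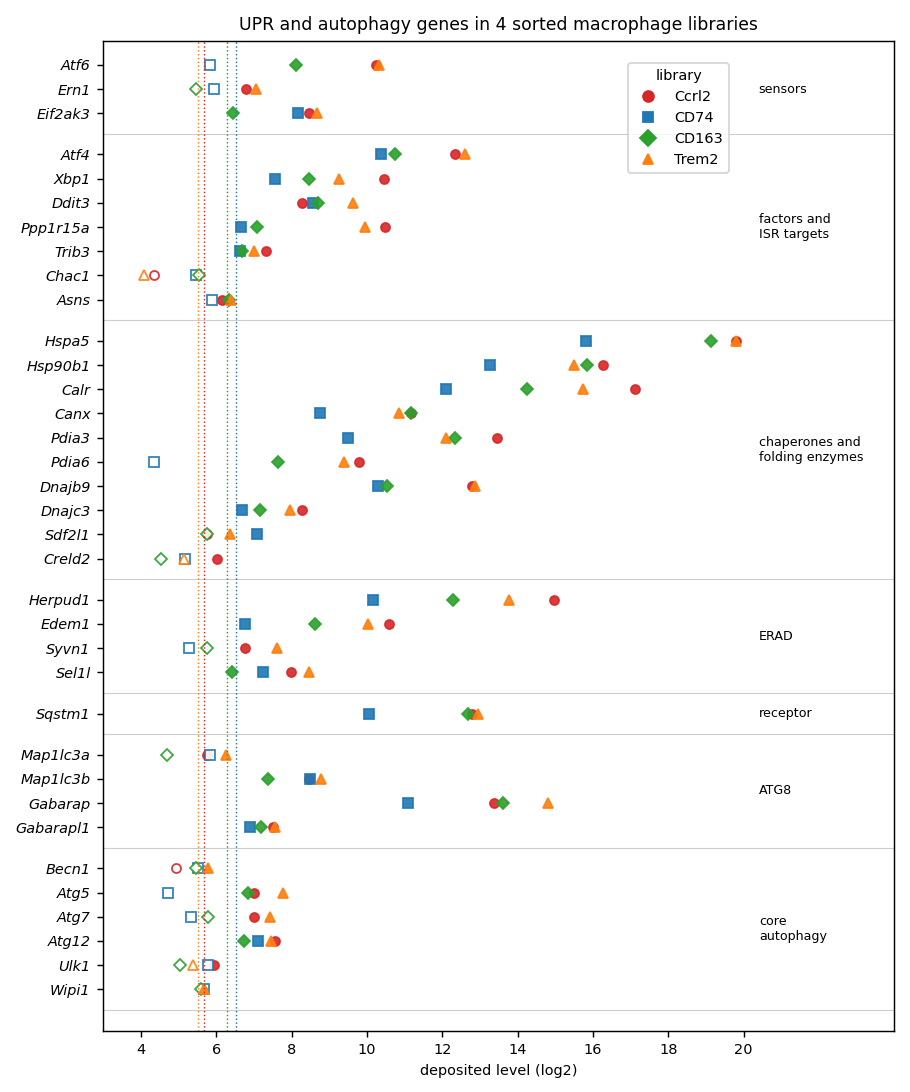
Deposited log2 levels of the 35 genes (x axis) by role, with a circle for Ccrl2, a square for CD74, a diamond for CD163 and a triangle for Trem2; open symbols lie below the ceiling of their library, drawn as dotted lines. The CD74 square lies left of the other 3 symbols for 22 of the genes, among them Hspa5, Calr and Herpud1, and the core autophagy genes lie close to the ceilings.

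Among the sensors, Atf6 stood at 10.25 in Ccrl2, at 5.82 in CD74, at 8.12 in CD163 and at 10.31 in Trem2. It was thus below the ceiling in CD74, at least 13.2-fold below Ccrl2 there, and nearly level between Ccrl2 and Trem2. Ern1 had 6.78 in Ccrl2 and 7.06 in Trem2, and its 5.95 in CD74 and 5.47 in CD163 lay below the ceiling. Eif2ak3 differed from these in having its low value in CD163, at 6.44, against 8.45 in Ccrl2, 8.17 in CD74 and 8.67 in Trem2. Its level in CD163 was 3.32-fold below that in CD74, the nearest library.

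The transcription factors did not share an order. Atf4, the factor of the integrated stress response, stood at 12.34 in Ccrl2, at 10.36 in CD74, at 10.74 in CD163 and at 12.60 in Trem2. On the deposited scale Ccrl2 and Trem2 were high and close together for this gene, CD74 and CD163 low and close together. That pattern was not kept after quantile normalization, where Atf4 ranged over 0.49 log2 units, with 11.68 in CD74 and 11.525 in Ccrl2. Xbp1, the factor downstream of IRE1, stood at 10.44 in Ccrl2, at 7.55 in CD74, at 8.47 in CD163 and at 9.26 in Trem2, which placed Ccrl2 2.27-fold above Trem2, its nearest library. Ddit3, which encodes the death-promoting factor CHOP, stood at 8.27 in Ccrl2, at 8.56 in CD74, at 8.69 in CD163 and at 9.63 in Trem2, so that Ccrl2 was lowest and Trem2 highest. A further probe set of Ddit3, with a lower mean, stood at 6.86 in Ccrl2, at 5.88 in CD74, at 5.65 in CD163 and at 6.12 in Trem2, with Ccrl2 highest. The 2 probe sets disagree, and the order of Ddit3 between Ccrl2 and Trem2 is not settled by these arrays.

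Of the targets of ATF4, Ppp1r15a, which encodes the phosphatase subunit GADD34 that ends the eIF2 block, stood at 10.49 in Ccrl2, at 6.66 in CD74, at 7.09 in CD163 and at 9.94 in Trem2. It was 14.2-fold higher in Ccrl2 than in CD74 and 10.6-fold higher in Ccrl2 than in CD163. Trib3, a pseudokinase that restrains ATF4 and CHOP, ranged over 0.71 log2 units and Asns, the asparagine synthetase, over 0.52. Trib3 lay within 2-fold in each pair. The level of Asns in CD74, 5.88, lay below the ceiling, so its range is not a measured one there.

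ER chaperones and folding enzymes spanned wide ranges, and 6 of the 10 measured were at least 2-fold lower in CD74 than in each other library, beside 15.6% of all genes. After quantile normalization 3 of the 10 were, beside 11.8% of all genes. Hspa5, which encodes BiP, the chaperone that also holds the sensors inactive, stood at 19.80 in Ccrl2, at 15.81 in CD74, at 19.14 in CD163 and at 19.80 in Trem2. The equal values in Ccrl2 and Trem2 lay 0.13 below the top of the scale, which leaves little room in which a difference between them could show. Calr, the calcium-binding lectin chaperone calreticulin, stood at 17.12 in Ccrl2, at 12.11 in CD74, at 14.24 in CD163 and at 15.74 in Trem2. It was 2.60-fold higher in Ccrl2 than in Trem2 and 32.2-fold higher in Ccrl2 than in CD74. Pdia3, a disulphide isomerase that works with calreticulin, stood at 13.44 in Ccrl2, at 9.49 in CD74, at 12.34 in CD163 and at 12.11 in Trem2, and Ccrl2 was again the highest. Hsp90b1, the ER member of the HSP90 chaperones, stood at 16.26 in Ccrl2, at 13.26 in CD74, at 15.85 in CD163 and at 15.49 in Trem2. CD74 was the low library for that gene on the deposited scale, while after quantile normalization it stood at 14.71, beside 14.62 in Trem2.

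Canx, the membrane-bound relative of calreticulin, stood at 11.16 in Ccrl2, at 8.74 in CD74, at 11.17 in CD163 and at 10.86 in Trem2, with CD74 again alone at the low end on the deposited scale. After quantile normalization CD74 and Trem2 were level for Canx, at -0.005 for CD74 minus Trem2. Pdia6, another disulphide isomerase, had 9.78 in Ccrl2, 7.65 in CD163 and 9.40 in Trem2, and lay below the ceiling in CD74 at 4.34. Dnajb9 and Dnajc3, co-chaperones of BiP, followed Atf4 in having CD74 and CD163 low on the deposited scale. After quantile normalization Dnajb9 kept both below Ccrl2 and Trem2, while Dnajc3 had 7.52 in CD163 and 7.44 in Trem2. Dnajb9 stood at 12.78 in Ccrl2, at 10.30 in CD74, at 10.52 in CD163 and at 12.87 in Trem2, and Dnajc3 ranged from 6.68 in CD74 to 8.28 in Ccrl2. Sdf2l1, a small partner of ER co-chaperones, ran the other way, with 7.09 in CD74, against 5.76 in Ccrl2, 5.76 in CD163 and 6.35 in Trem2. Its level in CD163 lay below the ceiling. Creld2, an isomerase-like ER protein, was above the ceiling in Ccrl2 alone, at 6.01.

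The promoter sequences of these genes are shown because several chaperones shared a low deposited level in CD74. Counts and medians by element in pairs with CD74, given below, are therefore not independent of that choice, and a link was not tested. Windows of 250 bases before to 50 after the gene start were taken from RefSeq, build GRCm38.p6, and were found for 31 of the 35 genes. The ER stress element (ERSE) is bound by ATF6 and XBP1 with NF-Y, and was searched as CCAAT followed after 9 bases by CCACG, on both strands. It occurred in 8 of the 31 windows (25.8%), against 0.137% of the 27025 genes with a window. The element was first described on ER chaperone genes of this kind, so its presence in them is background and not a result of these arrays. These were Hspa5, Hsp90b1, Calr, Canx, Pdia6, Dnajc3, Creld2 and Syvn1, and Hsp90b1 held it at 2 places. The sites are given 5′ to 3′ on the strand that reads CCAAT first, with the fixed letters in capitals.

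Hspa5, chr2:34772025-34772043, plus strand: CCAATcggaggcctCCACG
Hsp90b1, chr10:86705638-86705656, minus strand: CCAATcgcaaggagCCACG
Hsp90b1, chr10:86705533-86705551, plus strand: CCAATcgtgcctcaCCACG
Calr, chr8:84847075-84847093, plus strand: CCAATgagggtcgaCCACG
Canx, chr11:50325800-50325818, minus strand: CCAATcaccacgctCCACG
Pdia6, chr12:17266491-17266509, plus strand: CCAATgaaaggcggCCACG
Dnajc3, chr14:118937827-118937845, plus strand: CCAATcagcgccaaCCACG
Creld2, chr15:88819520-88819538, minus strand: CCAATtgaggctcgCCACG
Syvn1, chr19:6046532-6046550, plus strand: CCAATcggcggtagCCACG

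The 9 spacer bases differed between all of these sites, and the outer letters are identical by the search. The coordinates are those of the strand shown, and the site of Hspa5 lies 65 to 47 bases before the start. Of the 7 genes with the element measured in CD74 or Trem2, 7 were at least 2-fold lower in CD74, beside 14 of 20 without it and 50.5% of all genes. After quantile normalization these counts were 4 of 7 and 6 of 20, beside 32.6% of all genes, since Hsp90b1, Canx and Dnajc3 lay within 2-fold. The median difference, CD74 minus Trem2, was -2.35 with the element and -1.90 without on the deposited scale. It was -1.49 with and -0.30 without after quantile normalization. All genes with the element belong to the UPR, while those without it include the autophagy genes. On the deposited scale the median in this pair was -2.235 over all measured UPR genes and -0.545 over the autophagy genes. After quantile normalization it was -0.30 over the UPR genes and -0.26 over the autophagy genes. The other pairs did not all show a gap of that kind. The medians were 2.71 with the element and 1.66 without for Ccrl2 minus CD74, 1.07 with and 1.10 without for Ccrl2 minus CD163, and 0.35 with and -0.20 without for Ccrl2 minus Trem2. For CD74 minus CD163 they were -2.51 with and -0.41 without, and for CD163 minus Trem2 -0.79 with and -1.20 without. These are descriptions of 1 array per library, and a match of letters is not a bound site.

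The whole windows of Hspa5, Calr and Herpud1 follow on the strand of the gene, 5′ to 3′, with each matched element in capitals, its spacer included. They are shown as the central chaperone and the 2 genes that were at least 2-fold higher in Ccrl2 than in each other library on both scales used below. Hspa5 lies at chr2:34771840-34772139 on the plus strand, Calr at chr8:84846882-84847181 on the minus strand and Herpud1 at chr8:94386179-94386478 on the plus strand.

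Hspa5: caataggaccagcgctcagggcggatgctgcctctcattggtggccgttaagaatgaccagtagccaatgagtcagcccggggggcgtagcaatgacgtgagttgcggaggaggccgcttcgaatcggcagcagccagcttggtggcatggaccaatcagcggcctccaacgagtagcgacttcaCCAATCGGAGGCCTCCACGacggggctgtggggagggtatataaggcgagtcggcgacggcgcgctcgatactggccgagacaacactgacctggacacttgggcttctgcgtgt
Calr: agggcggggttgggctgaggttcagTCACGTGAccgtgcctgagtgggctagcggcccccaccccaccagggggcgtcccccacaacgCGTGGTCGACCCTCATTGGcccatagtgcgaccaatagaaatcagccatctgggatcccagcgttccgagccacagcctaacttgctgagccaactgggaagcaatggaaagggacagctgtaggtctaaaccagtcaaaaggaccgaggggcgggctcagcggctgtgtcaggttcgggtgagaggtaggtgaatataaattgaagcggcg
Herpud1: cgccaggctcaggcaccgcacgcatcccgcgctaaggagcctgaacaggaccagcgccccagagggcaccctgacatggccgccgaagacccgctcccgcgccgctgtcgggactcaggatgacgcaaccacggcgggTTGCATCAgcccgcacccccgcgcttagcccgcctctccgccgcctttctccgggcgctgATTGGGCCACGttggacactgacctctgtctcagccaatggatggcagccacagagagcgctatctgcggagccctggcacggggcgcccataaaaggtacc

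In Calr the capitals mark TCACGTGA, the CLEAR element recognised by the lysosomal and autophagy factor TFEB, and further on the ERSE read on the opposite strand. TCACGTGA occurred in 1 of the 31 windows (3.23%) and in 1.12% of all genes. In Herpud1 the capitals mark the composite element of ATF4 and C/EBP factors (CARE), searched as TGATGNAA and present on the opposite strand, and ERSE-II, searched as ATTGG followed after 1 base by CCACG. ERSE-II was added after the windows had been seen. It was found in Herpud1 alone among the 31, and in 0.0444% of all genes. CARE occurred in Trib3, Chac1, Asns and Herpud1, 4 of 31 windows (12.9%) against 4.51% of all genes, and 3 of these 4 are targets listed here for ATF4. The XBP1 element TGACGTGG was not found in the 31 windows, beside 0.714% of all genes. No 2 matches overlapped.

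**Figure D2:**
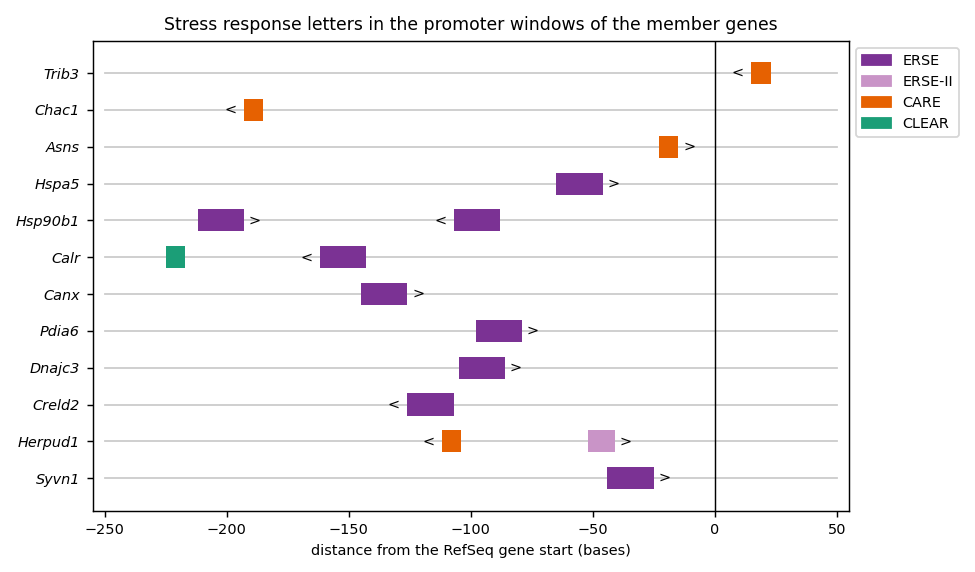
Positions of the matched elements in the 12 promoter windows that held any, in bases from the RefSeq gene start; the box length is the element and the arrow gives the strand that reads it relative to the gene, except for CLEAR, which reads alike on both. All 9 ERSE matches lie before the start, and the CARE of Trib3 lies after it.

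All 4 ERAD genes were at least 2-fold lower in CD74 than in Trem2, beside 50.5% of all genes. After quantile normalization 3 of the 4 were, beside 32.6% of all genes, and Sel1l differed by 0.195 log2 units, CD74 minus Trem2. Herpud1, a membrane scaffold of the degradation complex, stood at 14.96 in Ccrl2, at 10.16 in CD74, at 12.29 in CD163 and at 13.78 in Trem2. On the deposited scale the libraries stood apart at each step of that order, and Ccrl2 was 2.27-fold above Trem2. After quantile normalization Herpud1 differed by -0.39 log2 units, CD163 minus Trem2. Edem1, which extracts misfolded glycoproteins from folding, stood at 10.59 in Ccrl2, at 6.75 in CD74, at 8.63 in CD163 and at 10.03 in Trem2. Ccrl2 and Trem2 were close for Edem1. Syvn1, the ubiquitin ligase HRD1, had 6.77 in Ccrl2 and 7.62 in Trem2 and lay below the ceiling in the other 2 libraries, while its partner Sel1l stood at 7.99 in Ccrl2, at 7.25 in CD74, at 6.41 in CD163 and at 8.46 in Trem2.

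Among the autophagy genes, the cargo receptor Sqstm1, known as p62, stood at 12.78 in Ccrl2, at 10.06 in CD74, at 12.69 in CD163 and at 12.95 in Trem2. On the deposited scale the other 3 libraries lay within 0.26 log2 units of each other, and CD74 was 6.19-fold below the nearest of them. After quantile normalization Sqstm1 was still lowest in CD74, by 0.65 log2 units under Ccrl2, its nearest library. Gabarap, an ATG8 protein, stood at 13.37 in Ccrl2, at 11.08 in CD74, at 13.60 in CD163 and at 14.80 in Trem2, and was the only gene of the 34 at least 2-fold higher in Trem2 than in each other library. Map1lc3b, the LC3B protein commonly used to mark autophagosomes, stood at 8.46 in Ccrl2, at 8.48 in CD74, at 7.37 in CD163 and at 8.77 in Trem2. Its low library was CD163, as for Eif2ak3, and CD74 was level with Ccrl2 on the deposited scale. After quantile normalization Map1lc3b had 9.65 in CD74, against 7.92 in Ccrl2, 7.745 in CD163 and 8.11 in Trem2. Gabarapl1 ranged over 0.67 log2 units, and Map1lc3a was above the ceiling in Ccrl2, at 5.76, and in Trem2, at 6.25.

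Most genes of the core machinery lay near or below the ceilings. Becn1, the beclin subunit of the lipid kinase that starts the membrane, had 5.78 in Trem2, above the ceiling, and lay below it in Ccrl2 at 4.92, CD74 at 5.51 and CD163 at 5.47. Ulk1, the initiating kinase, and Wipi1, which binds the lipid made by the beclin complex, were each above the ceiling in a single library, at 5.93 in Ccrl2 for Ulk1 and at 5.67 in Trem2 for Wipi1. Atg5, part of the complex that attaches ATG8 proteins to lipid, had 6.99 in Ccrl2, 4.73 in CD74, below the ceiling, 6.83 in CD163 and 7.77 in Trem2. Atg7, the activating enzyme of that reaction, had 7.00 in Ccrl2 and 7.42 in Trem2 and was below the ceiling in CD74 and CD163. Atg12, the partner of Atg5, ranged over 0.81 log2 units and was within 2-fold in each pair.

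The first comparison asked which of the genes set the Ccrl2 library, the population in the title of the series, apart from the other 3. Xbp1, Calr, Pdia3 and Herpud1 were at least 2-fold higher in Ccrl2 than in each other library, 4 of 34 genes (11.8%) against 3.65% of all genes measured, and 0 were lower than in each, against 0.171%. Their margins over the nearest library were 2.27-fold for Xbp1, 2.60-fold for Calr, 2.14-fold for Pdia3 and 2.27-fold for Herpud1. After quantile normalization Calr (2.50-fold) and Herpud1 (2.02-fold) kept this place, 2 of 34 against 1.71%. Pdia3 was then level with CD163 (-0.04 log2, Ccrl2 minus CD163), Xbp1 was 0.70 above it, and Ddit3 was at least 2-fold lower in Ccrl2 than in each other library, by 2.11-fold against Trem2, 1 of 34 beside 0.332% of all genes. Xbp1 and Pdia3 thus stood apart in Ccrl2 on the deposited scale alone.

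Against the Trem2 library alone, whose array had a similar 95th percentile over all genes (10.09 in Ccrl2 and 10.21 in Trem2), the same 4 genes were at least 2-fold higher in Ccrl2, 4 of 34 (11.8%) beside 7.79% of all genes. Ddit3 and Gabarap were at least 2-fold lower, 2 of 34 (5.88%) beside 11.5%. These counts are small, and 19 of the 34 genes lay within 0.5 log2 units. The median difference, Ccrl2 minus Trem2, was 0.30 over the 23 UPR genes and -0.31 over the 11 autophagy genes, against -0.08 over all genes, and 2 of the 11 autophagy genes were positive. All 6 of these genes stayed at least 2-fold apart after quantile normalization, with 1.12 for Xbp1, 1.32 for Calr, 1.44 for Pdia3, 1.01 for Herpud1, -1.08 for Ddit3 and -1.53 for Gabarap on the log2 scale, beside 5.73% of all genes higher and 6.94% lower on that scale. With the mean over its 2 probe sets, Ddit3 was within 2-fold.

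Markers of other cells also differed between Ccrl2 and Trem2. All 7 neutrophil markers with a probe set lay above the ceiling in Trem2 and 4 in Ccrl2, with summed levels (log2 of the sum of the linear values) of 9.92 in Ccrl2 and 17.15 in Trem2 on the log2 scale. Of 6 plasma cell markers, a cell type known for a strong UPR, 3 lay above the ceiling in each of Ccrl2 and Trem2, with summed levels of 9.07 in Ccrl2 and 10.72 in Trem2. Jchain had 6.86 in Ccrl2 and 10.07 in Trem2, and Pou2af1 had 7.10 in Ccrl2 and 8.87 in Trem2. Prdm1 went the other way, with 7.73 in Ccrl2 and 5.96 in Trem2. Mzb1, Sdc1 and Tnfrsf17 were below the ceiling in all 4 libraries. At least 2-fold lower in Ccrl2 than in Trem2 were 4 of 5 measured B cell markers and 5 of 6 of T and NK cells, while 2 of 5 of fibroblasts were higher. Their part in the differences was not tested.

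**Figure D3:**
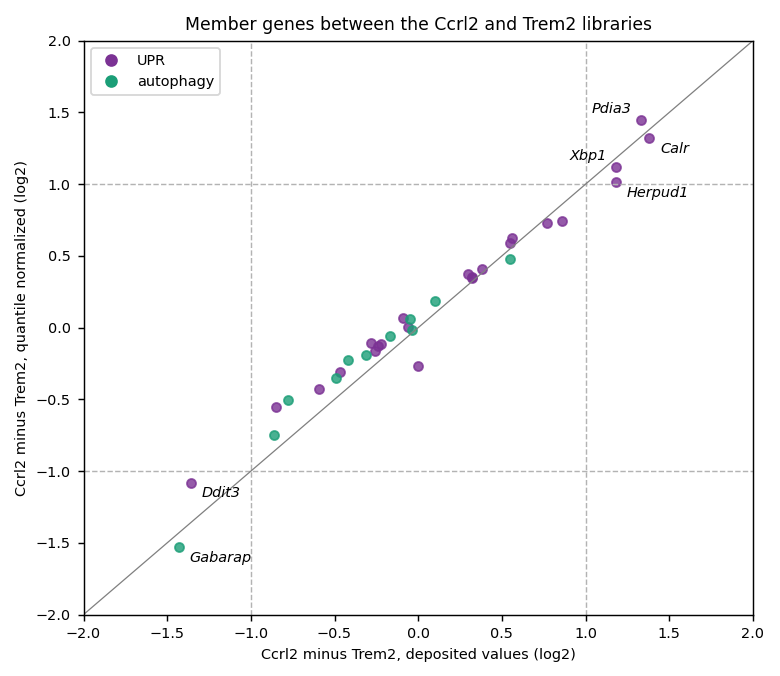
Ccrl2 minus Trem2 differences (log2) of the 34 genes measured in that pair on the deposited values (x axis) and after quantile normalization (y axis), with dashed lines at 2-fold. Calr, Pdia3, Xbp1 and Herpud1 lie beyond 2-fold upward and Ddit3 and Gabarap downward on both axes.

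The next comparison asked which genes set the CD74 library apart. At least 2-fold lower in CD74 than in each other library were 12 of 34 genes (35.3%), against 15.6% of all genes measured, and 0 were higher than in each, against 4.42%. The 12 were Atf6, Hspa5, Hsp90b1, Calr, Canx, Pdia3, Pdia6, Herpud1, Edem1, Sqstm1, Gabarap and Atg5, so 9 UPR and 3 autophagy genes. For Atf6, Pdia6 and Atg5 the level in CD74 lay below the ceiling, and for Atg5 the bound against CD163 was 1.23-fold, so a 2-fold difference is shown for the other 11. The margin of Hspa5 under its nearest library, CD163, was 10.1-fold, and 2.99-fold after quantile normalization. Those of Calr and Herpud1 were 4.38-fold each and that of Pdia3 6.15-fold on the deposited scale. After quantile normalization 7 of 34 were lower (20.6%, against 11.8% of all genes), namely Atf6, Hspa5, Calr, Pdia6, Herpud1, Edem1 and Atg5, and Eif2ak3, Sdf2l1 and Map1lc3b were then at least 2-fold higher in CD74 than in each other library, 3 of 34 (8.82%) beside 10.7%.

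In the same comparison, all 8 macrophage markers were at least 2-fold lower in CD74 than in each of Ccrl2, CD163 and Trem2. Their summed level was 11.39 in CD74, against 20.18 in Ccrl2, 19.48 in CD163 and 19.82 in Trem2. The summed level of the 10 T and NK cell markers was 13.86 in CD74, against 8.18 in Ccrl2, 8.66 in CD163 and 10.83 in Trem2. The part of this difference in cell markers, and of the higher background of the CD74 array, in the levels of the UPR genes was not tested.

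**Figure D4:**
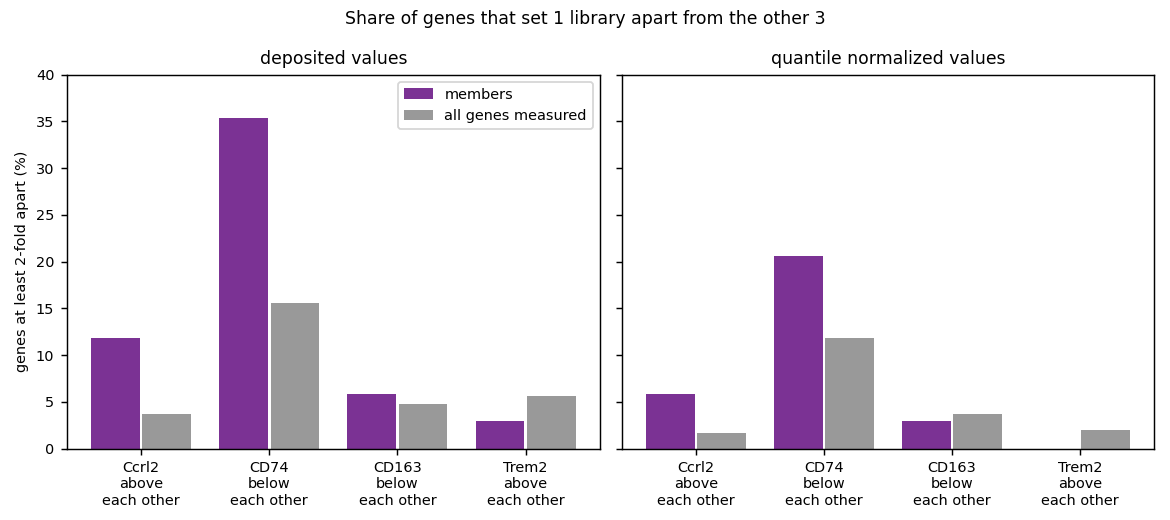
Percent of the 34 measured UPR and autophagy genes (purple) and of all 9346 measured genes (grey) that were at least 2-fold above or below each of the other 3 libraries, on the deposited values (left) and after quantile normalization (right). The members' share was 35.3% against 15.6% for CD74 below each other library, and 11.8% against 3.65% for Ccrl2 above.

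Set against single libraries, 19 of 32 genes measured in the pair were at least 2-fold higher in Ccrl2 than in CD74 (59.4%, against 48.8% of all genes) and 1, Sdf2l1, was lower (3.12%, against 9.01%). The median difference, Ccrl2 minus CD74, was 1.82, or 2.42 over the UPR genes and 0.62 over the autophagy genes, beside 0.96 over all genes. For 3 of the 19, Syvn1, Atg5 and Atg7, the level in CD74 lay below the ceiling and the lower bound of the fold was under 2. After quantile normalization 12 of 32 were higher (37.5%, against 33.2% of all genes) and 4 lower (12.5%, against 20.3%), and Atf4 differed by -0.15 there, beside 1.98 on the deposited values. Against Trem2, 22 of 32 genes were at least 2-fold lower in CD74 (68.8%, against 50.5%) and 0 higher (0%, against 7.62%), with a median of -2.10 beside -1.01. For Ern1 and Atg7 the bound was under 2. After quantile normalization these counts were 11 (34.4%, against 32.6%) and 3 (9.38%, against 18.1%), the first of them close to the share of all genes.

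Between CD74 and CD163, 12 of 26 genes were at least 2-fold lower in CD74 (46.2%, against 34.1% of all genes), among them Hspa5, Hsp90b1, Canx and Sqstm1, and 3 were higher (11.5%, against 17.5%). The 3 were Eif2ak3, Sdf2l1 and Map1lc3b. Here the bound was under 2 for Atg5 and Sdf2l1. The counts after quantile normalization were 12 lower (46.2%, against 33.7%) and 4 higher (15.4%, against 26.5%), and the 12 comprised 6 of the 9 chaperones measured in the pair.

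The CD163 library, of the population that carries a scavenger receptor for haemoglobin, had Eif2ak3 and Map1lc3b at least 2-fold lower than each other library, 2 of 34 (5.88%) against 4.72% of all genes, which is near the background. No gene of the 34 was higher there than in each other library, against 2.82% of all genes. After quantile normalization Eif2ak3 was still lower than in each (2.94%, against 3.7%), and Canx was 2.40-fold above its nearest library (2.94%, against 5.9%). Against Trem2, 16 of 32 were at least 2-fold lower in CD163 (50%, against 38.7%) and 0 higher (0%, against 7.63%), with a median of -1.07 beside -0.69. For Ern1 and Map1lc3a the bound was under 2. In the same pair 7 of 7 measured neutrophil markers, 5 of 5 of B cells, 3 of 3 of plasma cells, 5 of 6 of T and NK cells, 3 of 5 of fibroblasts, 4 of 5 of endothelial cells and 3 of 5 of cardiomyocytes were at least 2-fold lower in CD163, beside 2 of 8 of macrophages, and their part in the result was not tested. All 3 sensors and all 4 ERAD genes were among the 16, but 3 of 9 chaperones, since Hspa5, Hsp90b1, Canx, Pdia3, Dnajc3 and Sdf2l1 lay within 2-fold. After quantile normalization 7 were lower (21.9%, against 22.7%) and Hsp90b1, Canx and Pdia3 were at least 2-fold higher in CD163 (9.38%, against 15.7%).

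In the Trem2 library, named for a lipid-sensing receptor of macrophages, Gabarap stood 2.30-fold above CD163, its nearest library, 1 of 34 genes (2.94%) beside 5.66% of all genes. It was the sole gene so placed, and 0 of the 34 lay at least 2-fold below each other library, beside 0.214%. After quantile normalization 0 were above each (against 2.04%) and 0 below each (against 0.246%), and the difference of Gabarap, CD163 minus Trem2, was then -0.22. The position of Gabarap in Trem2 relative to CD163 thus rested on the deposited scale, while that relative to Ccrl2 did not.

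Ccrl2 against CD163 gave 19 of 32 genes at least 2-fold higher in Ccrl2 (59.4%, against 38.5%) and 0 lower (0%, against 7.65%), with a median of 1.09 beside 0.69. The largest difference was that of Ppp1r15a, 3.40 log2 units, followed by Calr with 2.88 and Herpud1 with 2.67. For 5 of the 19, Ern1, Creld2, Syvn1, Map1lc3a and Atg7, the level in CD163 was below the ceiling and a 2-fold difference is not shown. In the same pair 4 of 4 measured B cell markers, 4 of 4 of neutrophils, 5 of 5 of fibroblasts, 4 of 5 of endothelial cells, 2 of 3 of plasma cells and 3 of 6 of cardiomyocytes were at least 2-fold higher in Ccrl2, beside 2 of 8 of macrophages and 0 of 1 of T and NK cells. Their part in the result was not tested. After quantile normalization the counts were 9 (28.1%, against 22.2%) and 4 (12.5%, against 15%). Comparisons that share a library are not independent of each other.

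**Figure D5:**
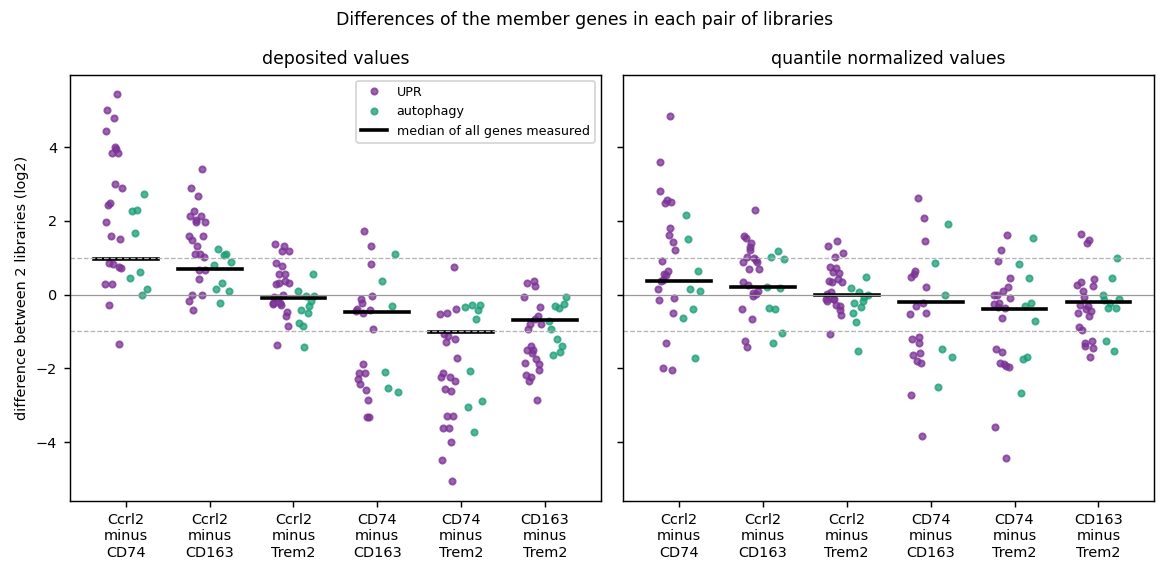
Log2 differences of the measured UPR genes (purple) and autophagy genes (green) in each of the 6 pairs, with the median of all genes measured in the pair (black line) and dashed lines at 2-fold, on the deposited values (left) and after quantile normalization (right). On the deposited values the Ccrl2 minus CD74 points have a median of 1.82 beside 0.96 for all genes, and Ccrl2 minus Trem2 points lie within 2-fold for 28 of 34 genes.

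Other genes of the same pathways were listed by role and not by how they moved. At least 2-fold lower in CD74 than in each other library were 7 of 24 measured genes of ER folding, translocation and export, 3 of 11 of ERAD, 5 of 19 of the integrated stress response and 4 of 31 of autophagy, against 15.6% of all genes. At least 2-fold higher in Ccrl2 than in each other library were 2 of 24, 0 of 11, 1 of 19 and 1 of 31 in the same order, against 3.65% of all genes. After quantile normalization the counts for CD74 were 2 of 24 (8.33%), 2 of 11, 3 of 19 and 3 of 31 (9.68%), against 11.8% of all genes, and those for Ccrl2 were 0 of 24, 0 of 11, 1 of 19 and 0 of 31, against 1.71%. The share of the folding group in CD74 was thus above that of all genes on the deposited scale, at 29.2%, and below it after quantile normalization. The shares of the ERAD and integrated stress response groups were above that of all genes on both scales, by few genes. That of the autophagy group was below it on both.

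Of the folding group, Stt3a, a catalytic subunit of the glycosyltransferase of the ER, stood at 15.85 in Ccrl2, at 11.83 in CD74, at 13.79 in CD163 and at 14.28 in Trem2. Hyou1, a large ER chaperone, had 9.30 in Ccrl2, 9.42 in CD163 and 9.46 in Trem2 and was below the ceiling in CD74. Ssr3, of the translocon-associated complex, ranged from 7.34 in CD74 to 9.91 in Ccrl2. These 3 had their low deposited value in CD74. Of the ERAD group, Vcp, the ATPase that pulls proteins from the membrane, stood at 10.30 in Ccrl2, at 5.84 in CD74, at 7.05 in CD163 and at 9.33 in Trem2. Its adaptor Nploc4 ranged from 7.37 in CD74 to 10.48 in Ccrl2, and the channel protein Derl1 from 5.79 in CD74 to 8.63 in Trem2. The levels of Vcp and Derl1 in CD74 lay below the ceiling, so their ranges are not measured ones there.

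Of the integrated stress response, Atf3, an early stress factor, stood at 19.75 in Ccrl2, at 13.29 in CD74, at 19.47 in CD163 and at 19.47 in Trem2. Ppp1r15b, the constitutive relative of Ppp1r15a, stood at 10.42 in Ccrl2, at 6.30 in CD74, below the ceiling, at 7.56 in CD163 and at 7.97 in Trem2. Ccrl2 alone was high for Ppp1r15b. Slc7a11, the cystine transporter, stood at 8.81 in Ccrl2, at 7.98 in CD74, at 7.57 in CD163 and at 11.73 in Trem2, and Trem2 alone was high. Of the autophagy group, the receptor Tax1bp1 had its low value in CD163 (6.07, below the ceiling, against 9.67 or more elsewhere), like Map1lc3b. The scaffold Wdfy3 and the lysosomal factor Tfe3 were below the ceiling in CD74, at 4.47 and 4.35, against 8.03 or more and 7.42 or more elsewhere.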

How the data were processed

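The deposited log2 values were made by the authors from Clariom S mouse arrays by robust multichip average (RMA), per the labels' protocols, which name GeneSpring too, and Affymetrix Expression Console is named in the submitters' processing notes. RNA was amplified with a kit for small inputs. The columns did not share a distribution (95th percentiles 10.09 in Ccrl2, 8.45 in CD74, 9.06 in CD163, 10.21 in Trem2), so each count was repeated after quantile normalization. For the RMA settings, the sources used here give nothing. That the scale is log2 was judged from values between 2.97 and 19.93. Of 28846 probe sets, 6640 were controls and the platform annotation paired 19572 with 1 symbol, 0 with several and 2634 with none. For 55 genes with several probe sets, among them Ddit3, the probe set with the highest mean level was taken. Python 3.11.15, pandas 2.3.3 and numpy 2.4.6 were used.

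A gene was measured in a pair when it lay above the ceiling in at least 1 of its libraries, and called when the library with the higher level was above its ceiling and the difference was at least 1 log2 unit. Where the lower level was under the ceiling, the fold is a lower bound against that ceiling. No p-value, SE or SD could be had with 1 array per library. The calling rule was run on simulated libraries drawn around a common mean profile. Those libraries lacked the differences in distribution of these arrays, so the run does not stand in for replicates. Values in every library are given for genes apart from each other library or between Ccrl2 and Trem2 and for the central gene of each role, with others by range, and from each wider list the 3 genes with the largest range; the remaining values were picked for description after they were seen. The genes, lists and settings were chosen with earlier results of these data known.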

Additional observations from a re-analysis of the deposited data

How the results depend on the processing

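No paired analysis was possible because each population was a single library. Of the 26 counts and medians given for the 6 pairs and 4 libraries, quantile normalization moved the most by more than 1.5 times, 18 of 26 (the cause was not tested). Leaving out saturated genes could move none of them, because no gene of the set was saturated. The highest, Hspa5, lay 0.13 below the top of the scale. After quantile normalization the medians were 0.55 (Ccrl2 minus CD74), -0.28 (CD74 minus Trem2) and -0.29 (CD163 minus Trem2). The counts of higher and lower genes were 12 and 4 for Ccrl2 against CD74, 9 and 4 for Ccrl2 against CD163, 3 and 11 for CD74 against Trem2 and 3 and 7 for CD163 against Trem2. Apart from each other library were then 2 genes above and 1 below in Ccrl2, 3 above and 7 below in CD74, 1 above and 1 below in CD163 and 0 above in Trem2. Single genes whose difference turned sign there were Atf4 (-0.15, Ccrl2 minus CD74), Pdia3 (-0.04, Ccrl2 minus CD163) and, for CD74 minus Trem2, Ddit3 (0.90), Hsp90b1 (0.0875) and Sel1l (0.20).

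Centring each pair on the genes above both ceilings gave medians of 1.04 (Ccrl2 minus CD74), 0.47 (Ccrl2 minus CD163), -1.17 (CD74 minus Trem2) and -0.45 (CD163 minus Trem2), with 2 genes lower in Ccrl2 than in CD74, 9 higher and 1 lower in Ccrl2 than in CD163, 1 higher in CD74 than in Trem2 and 9 lower in CD163 than in Trem2. With each library centred on the genes above all 4 ceilings, 2 genes were above and 1 below each other library in Ccrl2, 3 above in CD74, 1 above and 0 below in CD163 and 0 above in Trem2. Without the background filter 1 gene was higher in CD163 than in Trem2, 1 higher in CD74 than in Trem2, 1 lower in Ccrl2 than in CD163 and 2 lower in Ccrl2 than in CD74. With the ceiling at the 99th percentile 0 were lower in Ccrl2 than in CD74, and the median of CD74 minus CD163 was -1.88, over fewer genes. With the mean over probe sets 1 gene was lower in Ccrl2 than in Trem2. Leaving out 1 of the other libraries at a time, the genes above each remaining library numbered 4 to 13 in Ccrl2 (13 without Trem2), 0 to 1 in CD74 (1 without Trem2) and 1 to 13 in Trem2 (2 without CD163, 13 without Ccrl2), and those below numbered 12 to 19 in CD74 (19 without CD163) and 2 to 15 in CD163 (15 without CD74). The counts in this paragraph stand without the share of all genes under the same settings, so they cannot be set against the whole array. Signal over background limits the core autophagy genes most, of which Becn1, Ulk1 and Wipi1 were each measured in a single library.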
